A study of Mus musculus with 51 samples.

Results

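The change in the IFN-γ response under TAK-243 was taken from 8 of the 51 RNA-seq libraries of the series, all from cultured wild-type Myc-CaP cells, a mouse prostate cancer line. The 4 groups held 2 libraries each. They were control cells, cells given 50 nM TAK-243, cells given IFN-γ, and cells given 50 nM TAK-243 together with IFN-γ (the combination). TAK-243 inhibits UBA1 and is a small molecule. The legend of the study's figure that holds these data gives 18 hours for TAK-243, and 1 ng/mL for 18 hours for IFN-γ, while the labels of these libraries give no IFN-γ dose or time. The question was whether the IFN-γ effect differed with and without the inhibitor. It was measured as the interaction, which is the log2 fold change by IFN-γ in TAK-243 cells minus that in control cells. An interaction of 0 means that both effects multiply, so that IFN-γ gave the same fold with and without the inhibitor.

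IFN-γ binds its receptor, and the kinases JAK1 and JAK2 then pass the signal on to the nucleus, where GAS elements are bound. The transcription factor IRF1 is induced early and acts with other factors on ISRE elements, and a large set of genes for antigen presentation, GTPases of cell-autonomous immunity and chemokines follows. UBA1 is the E1 enzyme that activates ubiquitin for most of the proteins that cells mark for the proteasome. It stands upstream of the turnover of many signalling proteins, among them inhibitors of NF-κB.

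The libraries held 12860844 to 16793793 counts. The study's methods state that its data points came from distinct samples, without saying whether these were separate cultures, so p-values measure the spread between these libraries, which may be technical. Replicates differed by 1.83 to 2.60 times counting error (chi-square per degree of freedom) and correlated at 0.991 to 0.992 on log2 CPM. Levels are given in CPM, which are counts divided by library size after TMM scaling. Of 40077 genes, 14551 passed the filter on low counts. Of 8 prostate epithelial markers, 6 were tested. Epcam held at most 1 count in every library, and Krt8 held 43 to 220 counts. The 12 leukocyte markers summed to 2.73 to 8.86 CPM, with Adgre1 and Nkg7 among those at 0.

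The promoters of 6 genes, from RefSeq on GRCm38.p6, were chosen to show matches to elements known from IFN-γ signalling. Each runs from upstream of the start of transcription to a short stretch past it, 300 bases on the gene's own strand. Capitals mark a match on either strand to the GAS pattern TTCNNNGAA, the ISRE pattern (GAAA, any 2 bases, GAAA) or the AP-1 pattern TGANTCA. Tgtp1 (chr11:48992197-48992496, minus strand) had the largest called interaction above 0 among induced genes and holds a GAS and an ISRE side by side. Igtp (chr11:58199306-58199605, plus strand), a relative of Tgtp1, holds the same pair. Erap1 (chr13:74639603-74639902, plus strand) holds an ISRE. Irf1 (chr11:53769764-53770063, plus strand) and Psmb8 (chr17:34197945-34198244, plus strand) hold a GAS. Cxcl10 (chr5:92348840-92349139, minus strand) holds an ISRE and an AP-1 match.
Tgtp1: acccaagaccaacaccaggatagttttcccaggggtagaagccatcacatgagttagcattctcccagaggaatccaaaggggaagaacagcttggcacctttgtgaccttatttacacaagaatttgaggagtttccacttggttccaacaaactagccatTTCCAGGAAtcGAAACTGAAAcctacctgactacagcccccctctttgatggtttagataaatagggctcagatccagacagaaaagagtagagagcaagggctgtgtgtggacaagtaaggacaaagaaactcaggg
Igtp: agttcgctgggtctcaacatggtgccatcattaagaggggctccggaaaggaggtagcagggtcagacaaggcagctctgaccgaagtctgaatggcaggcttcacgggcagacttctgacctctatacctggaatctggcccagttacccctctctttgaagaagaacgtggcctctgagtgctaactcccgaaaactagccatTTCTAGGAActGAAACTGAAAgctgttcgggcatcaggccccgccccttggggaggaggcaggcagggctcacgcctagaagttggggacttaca
Erap1: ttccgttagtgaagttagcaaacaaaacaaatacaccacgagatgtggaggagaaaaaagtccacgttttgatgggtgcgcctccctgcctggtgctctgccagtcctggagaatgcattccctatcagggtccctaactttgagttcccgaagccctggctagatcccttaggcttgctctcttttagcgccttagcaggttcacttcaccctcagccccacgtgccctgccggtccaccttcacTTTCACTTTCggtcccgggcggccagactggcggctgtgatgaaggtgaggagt
Irf1: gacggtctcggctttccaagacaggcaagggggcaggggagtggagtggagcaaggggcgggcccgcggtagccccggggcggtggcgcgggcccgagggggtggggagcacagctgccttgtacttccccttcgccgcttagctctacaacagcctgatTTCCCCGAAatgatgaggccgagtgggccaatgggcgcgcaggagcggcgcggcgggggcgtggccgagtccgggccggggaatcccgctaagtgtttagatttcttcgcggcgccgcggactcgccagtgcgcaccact
Psmb8: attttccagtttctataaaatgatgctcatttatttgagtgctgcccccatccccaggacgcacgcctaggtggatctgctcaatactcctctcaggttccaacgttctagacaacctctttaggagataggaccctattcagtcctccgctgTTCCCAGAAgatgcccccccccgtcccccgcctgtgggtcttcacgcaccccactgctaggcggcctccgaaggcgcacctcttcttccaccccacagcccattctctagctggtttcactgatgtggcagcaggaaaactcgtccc
Cxcl10: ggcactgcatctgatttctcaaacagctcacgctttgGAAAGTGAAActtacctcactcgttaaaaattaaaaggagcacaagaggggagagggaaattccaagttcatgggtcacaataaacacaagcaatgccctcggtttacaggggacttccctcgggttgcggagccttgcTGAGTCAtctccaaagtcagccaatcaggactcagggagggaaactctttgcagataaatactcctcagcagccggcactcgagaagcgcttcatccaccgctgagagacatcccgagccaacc

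Among 27025 promoters of this length, 8.47% held the GAS pattern, 3.49% the ISRE pattern, 7.93% the AP-1 pattern and 0.385% the NF-κB pattern (GGGA, any base, TTTCC). The search covered both strands, and the patterns were counted separately where they overlapped. Of the 59 genes that IFN-γ raised by at least 2-fold on average, 41 had a promoter in the table, and 26.8% of these held GAS, 39.0% ISRE, 17.1% AP-1 and 0.0% NF-κB. Of 6 promoters of induced genes with an amplified response, 1 held GAS and 2 ISRE, and those of Stat3, Dtx3l, Rnf213 and Cdc42ep2 held no match to any of the patterns. Among 200 promoters of induced genes with a damped response, the shares were 6.0% for GAS and 3.0% for ISRE, close to the 7.16% and 3.07% among 10702 promoters of all tested genes. A match is a description of letters and does not show binding.

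IFN-γ moved many genes in small steps, and a change of the step under TAK-243 was called for few genes. Averaged over cells with and without TAK-243, the IFN-γ effect passed the threshold upward in 2734 genes (18.8% of those tested) and downward in 1693 (11.6%), by the quasi-likelihood test of edgeR after Benjamini-Hochberg adjustment. Of these 4427 genes (30.4%), 4151 changed by less than 0.5 on the log2 scale. The effect was called in 4216 genes (29%) in control cells and in 1534 (10.5%) in TAK-243 cells, and in 580 of the latter when replicate 1 of the combination was left out. The interaction was called in 347 genes (2.38%), of which 54 lay above 0 (0.371%) and 293 below (2.01%). At an unadjusted p under 0.05 there were 2154. Of the calls, 305 were smaller than 0.5 on the log2 scale and 15 reached at least 1.

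The split of the calls by direction moved with the scaling. The median interaction over all tested genes was −0.04 with TMM factors, and 84.44% of the calls lay below 0. Among the 12129 genes with at least 10 counts in every library the median was 0.01, and 46.26% of the calls lay below 0 (158 above, 136 below). After removal of each library's trend with transcript length and GC content the split was 45 above to 90 below, and in a fit of all 16 cell libraries of the study it was 10 to 11. Without replicate 2 of the combination, 85 genes were called in place of 347. With log2(TPM + 1) the median was 0.11, 1 gene was called, and the average IFN-γ effect split into 350 genes higher and 2602 lower, with a median effect of −0.14 in control cells.

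Genes with an average IFN-γ effect were sorted by the interaction. Where it was called in the direction of the effect, the response was termed amplified (10 genes, 0.0687%), and where it was called against the effect, damped (288 genes, 1.98%). Where it was not called and its 95% interval stayed within 0.5 of 0 on the log2 scale, the response was termed additive on that scale (3408 genes, 23.4%). The remaining 721 genes were undecided, because the interval reached past 0.5. Without replicate 2 of IFN-γ, 3 genes were amplified, without replicate 1 of TAK-243, 18, and without replicate 2 of the combination, 70 were damped. Among damped genes 251 were induced and 37 repressed by IFN-γ, a split of 115 to 128 among genes with at least 10 counts in every library.

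Most strongly induced genes could not be placed in a class. Of the 59 genes raised by at least 2-fold on average (0.405% of those tested), 2 were amplified, 2 damped, 4 additive and 51 undecided. The estimate lay above 0 in 29 and below in 30. A total of 25 of them had a group with at most 3 counts in both libraries. The median interaction of the other 34 was −0.01, against −0.04 over all tested genes, and the median distance from the estimate to the end of its 95% interval was 0.95, against 0.31. Undecided genes included some well above the floor, such as Irgm1 at 67.0 and 64.8 CPM with IFN-γ.

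**Figure D1:**
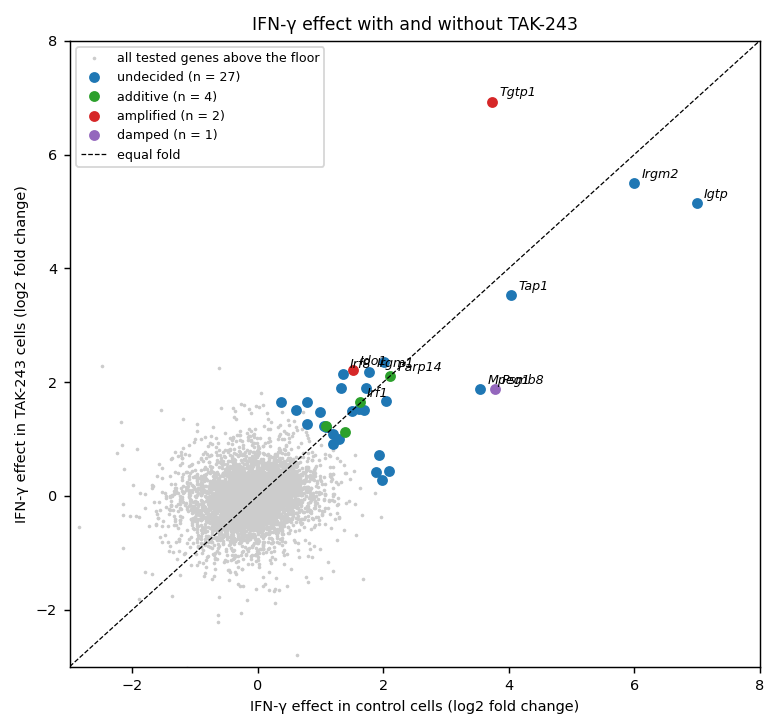
IFN-γ effect in control cells (x axis, log2 fold change) against that in TAK-243 cells (y axis, same scale) for tested genes without a group at the floor, with the 34 genes raised by at least 2-fold on average in color by class. The dashed line marks equal folds, the axes run from −3 to 8 and leave 4 genes outside, Tgtp1 stands far above the line, Psmb8 and Igtp stand below it, and most colored genes follow it.

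Tgtp1, which encodes an immunity-related GTPase that attacks vacuoles of intracellular parasites, had the clearest amplified response. Its level was 2.23 and 1.31 CPM in control cells, 0.245 and 0.321 in TAK-243 cells, 23.2 and 23.8 with IFN-γ, and 35.5 and 34.2 in the combination. TAK-243 libraries were the lowest without IFN-γ and the highest with it, with no overlap. IFN-γ raised it by 3.73 (SE 0.20) on the log2 scale in control cells and by 6.93 (SE 0.50) in TAK-243 cells. The interaction was 3.20 (SE 0.54, 95% interval 2.10 to 4.30, n = 2 per group), with an adjusted p of 2.19e-05 by edgeR's quasi-likelihood test. The fold in TAK-243 cells rests on a base of 4 counts in each library, and limma on TPM did not call the gene (adjusted p 0.0563 and 0.0600). Tgtp1 (chr11:48985327-48994172 in GENCODE M21) overlaps Gm12185 and has a near-identical copy, Tgtp2, so reads may be divided among them. Tgtp2 was at 0 counts in all 4 libraries without IFN-γ, at 6.69 and 5.48 CPM with IFN-γ, and at 10.1 and 8.77 in the combination. Summed over the 3 genes, the interaction was 2.95 (SE 0.42, adjusted p 1.96e-05).

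A further 3 amplified genes started lower in TAK-243 cells and ended lower. Erap1, the ER aminopeptidase that trims peptides for MHC class I, was at 34.7 and 35.8 CPM in control cells, 13.7 and 15 with TAK-243, 50.6 and 57.6 with IFN-γ, and 33.1 and 31.0 in the combination. The combination stayed below IFN-γ alone, and IFN-γ gave 1.16 (SE 0.10) on the log2 scale over TAK-243 against 0.62 (SE 0.08) over control. Its interaction was 0.54 (SE 0.13, adjusted p 0.0149). In CPM, IFN-γ added less Erap1 to TAK-243 cells than to control cells, so Erap1 was not amplified on the linear scale. Of the 7 induced genes with an amplified response, 6 also had the larger CPM increment in TAK-243 cells. Dtx3l, a ubiquitin ligase that works with PARP9 in interferon signalling, was at 33.8 and 34.4 CPM in control cells, 13.7 and 15.4 with TAK-243, 42.3 and 43.7 with IFN-γ, and 25.1 and 26.4 in the combination. Rnf213, a large ubiquitin ligase with antimicrobial activity, was at 201 and 198 CPM in control cells, 113 and 108 with TAK-243, 227 and 240 with IFN-γ, and 163 in both libraries of the combination. For Dtx3l and Rnf213, too, the 4 groups kept apart and TAK-243 lowered the level with and without IFN-γ. The interaction was 0.50 for Dtx3l (SE 0.13, adjusted p 0.0256) and 0.32 for Rnf213 (SE 0.05, adjusted p 0.000366). Parp9, whose gene meets Dtx3l head to head, gave 0.48 (SE 0.14, adjusted p 0.0627), and the sum of both genes, which overlap, gave 0.56 (SE 0.09, adjusted p 0.000736).

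Ido1, which degrades tryptophan, ended at about the same level with and without TAK-243. It was at 11.7 CPM in both control libraries, 6.38 and 6.58 with TAK-243, 34.0 and 32.8 with IFN-γ, and 29.0 and 30.8 in the combination. The groups did not overlap, and the combination lay just below IFN-γ alone (−0.16, adjusted p 0.0918). The interaction was 0.70 (SE 0.15, adjusted p 0.00989). On the linear scale IFN-γ added 21.7 CPM to control cells and 23.4 CPM to TAK-243 cells.

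Stat3 and Cdc42ep2 were amplified with a combination above IFN-γ alone. Stat3, a transcription factor of cytokine signalling, was at 31.9 and 26.3 CPM in control cells, 37.9 and 34.7 with TAK-243, 35.4 and 36.3 with IFN-γ, and 62.1 and 59.2 in the combination. Its TAK-243 and IFN-γ libraries overlapped, and the combination stood well above all others. The interaction was 0.44 (SE 0.12, adjusted p 0.0399). Cdc42ep2, an effector of the GTPase CDC42 that shapes the cytoskeleton, had an interaction of 0.60 (SE 0.16, adjusted p 0.0418), and its combination was at 18.8 and 19.7 CPM against 14.6 and 16.6 with IFN-γ.

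Of these 7 genes, Tgtp1 and Rnf213 kept their call with each library left out in turn. Ido1 lost it without replicate 2 of IFN-γ or of the combination (adjusted p up to 0.0626). Erap1 lost it without replicate 2 of control, replicate 1 of TAK-243, of IFN-γ or of the combination (up to 0.0983). Dtx3l kept it only without replicate 2 of TAK-243 or replicate 1 of the combination, Stat3 only without replicate 2 of control or replicate 1 of TAK-243, and Cdc42ep2 only without replicate 2 of TAK-243. In the fit of 16 libraries Dtx3l, Stat3 and Cdc42ep2 lost their call, Cdc42ep2 also lost it with limma-voom and after the length and GC correction, and none of the 7 was called with TPM. Bonferroni adjustment ended the call of all but Tgtp1 and Rnf213. DESeq2 gave an adjusted p for 3267 of the 14551 genes, and of these 7 for Rnf213 alone, which it called (0.000247).

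**Figure D2:**
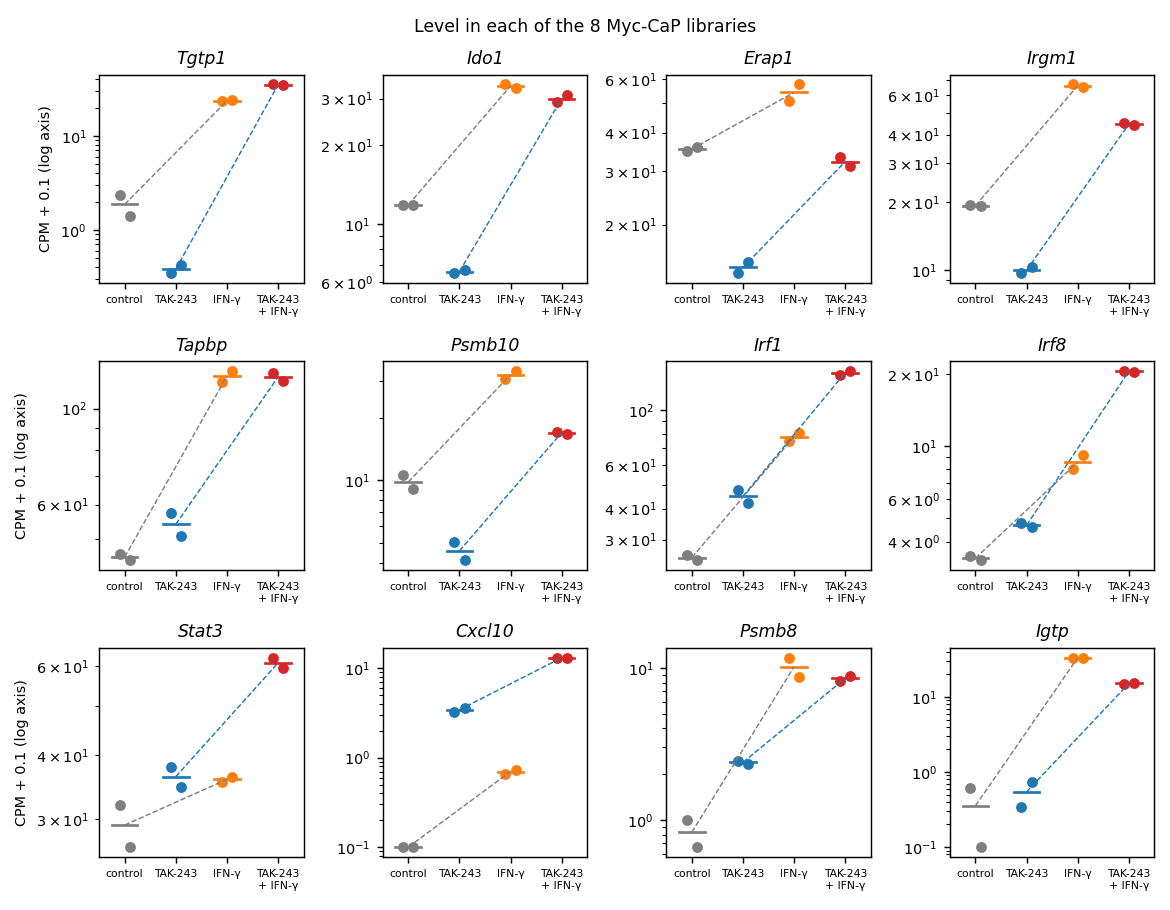
Level of 12 genes in each library, as CPM + 0.1 on log axes, so that 0 stands at 0.1, with a point per library, a bar at the mean of each group and dashed lines that join the groups without IFN-γ to those with it. Lines that run parallel mean equal folds, as for Irf1, and the line over TAK-243 is steeper for Tgtp1 and Ido1 and flatter for Psmb8.

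Psmb8, which encodes the immunoproteasome subunit that replaces the chymotrypsin-like subunit of the proteasome, had a damped response. It was at 0.894 and 0.562 CPM in control cells, 2.33 and 2.25 with TAK-243, 11.5 and 8.61 with IFN-γ, and 8.09 and 8.77 in the combination. TAK-243 raised the level without IFN-γ, and with IFN-γ the groups overlapped. IFN-γ gave 3.77 (SE 0.33) on the log2 scale in control cells and 1.88 (SE 0.23) in TAK-243 cells, an interaction of −1.90 (SE 0.40, adjusted p 0.00406). Without replicate 2 of control the value was −1.60, with an adjusted p of 0.0543. The call was also lost in the fit of 16 libraries (adjusted p 0.0775), with Bonferroni adjustment and with TPM. The other immunoproteasome subunits gave no such call. Psmb10 was at 10.5 and 8.93 CPM in control cells, 4.91 and 4.01 with TAK-243, 30.6 and 33.5 with IFN-γ, and 17.0 and 16.7 in the combination, with an interaction of 0.17 (95% interval −0.21 to 0.55). Psmb9 reached 7.32 and 7.71 CPM with IFN-γ and 3.09 and 2.69 in the combination, and held at most 6 counts in each library without IFN-γ. Whether these subunits differ from Psmb8 in the interaction was not tested.

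Lgals3bp, a secreted glycoprotein, was the other strongly induced gene with a damped response. It held 1 count in each control library, 8 and 14 counts with TAK-243, 23 and 27 with IFN-γ and 18 and 14 in the combination. The control libraries stood below all others and the IFN-γ libraries above. The interaction was called (adjusted p 0.0142), and because control cells lay at the floor no size is given. The call was lost without either control library and without replicate 2 of each other group.

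Genes of the IFN-γ signal chain were counted next. Of 16 tested, 11 rose and 2 fell on average (all tested genes 18.8% and 11.6%). Of their interactions 1 was called above 0 (Stat3) and 0 below (all tested genes 0.371% and 2.01%), with a median of 0.07. Jak1, the receptor kinase, was at 126 and 127 CPM in control cells, 362 and 359 with TAK-243, 127 and 128 with IFN-γ, and 352 and 363 in the combination. TAK-243 raised its level with IFN-γ and without it, and the interaction was −0.03 (SE 0.05, adjusted p 0.861). Jak2, its partner, was lower with TAK-243 (−0.54 on the log2 scale, adjusted p 3.32e-12) and also showed no called interaction (0.02, 95% interval −0.11 to 0.15). Stub1, a ubiquitin ligase, was additive at 0.00 (95% interval −0.19 to 0.19), with IFN-γ effects of 0.28 in both backgrounds. Ifngr1, which encodes the ligand-binding receptor chain, was not moved by IFN-γ in either background (adjusted p 0.684 and 0.505).

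Irf1 was additive. Its level was 25.9 and 24.7 CPM in control cells, 47.6 and 41.9 with TAK-243, 74.9 and 80.8 with IFN-γ, and 139 and 144 in the combination. The 4 groups rose in that order without overlap. IFN-γ gave 1.63 (SE 0.07) on the log2 scale in control cells and 1.65 (SE 0.06) in TAK-243 cells, and the interaction of 0.03 had a 95% interval of −0.16 to 0.21. In CPM the same folds added 52.6 to control cells and 96.4 to TAK-243 cells. Stat2 (0.02), a subunit of the ISGF3 complex, was additive too. Its partner Irf9 (0.11, 95% interval −0.30 to 0.52) was undecided. Irf8, a transcription factor best known from myeloid cells, was at 3.38 and 3.25 CPM in control cells, 4.66 and 4.49 with TAK-243, 7.89 and 9.05 with IFN-γ, and 20.5 and 20.3 in the combination. All 4 groups kept apart, with an interaction of 0.79 (95% interval 0.33 to 1.26) that missed the threshold (adjusted p 0.0571). It was called with at least 10 counts in every library (adjusted p 0.0445) and after the length and GC correction (0.0448).

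MHC class I presentation rose with IFN-γ in both backgrounds. Of 14 tested genes, 12 rose and 1 fell on average (all tested genes 18.8% and 11.6%). Of their interactions 1 was called above 0 (Erap1) and 1 below (Psmb8), with a median of −0.08. Over all tested genes 0.371% were called above 0 and 2.01% below. For the MHC class I genes the split above and below 0 was 1 to 3 with limma-voom and 1 to 4 without a filter. Among genes with at least 10 counts in every library it was 1 to 0. H2-K1 and H2-D1, the classical heavy chains, were not analysed here. Tapbp, the tapasin that loads peptides, was at 46.0 and 44.5 CPM in control cells, 57.1 and 50.7 with TAK-243, 115 and 122 with IFN-γ, and 120 and 116 in the combination. TAK-243 raised it without IFN-γ, and with IFN-γ the groups overlapped. The interaction was −0.27 (95% interval −0.43 to −0.11, adjusted p 0.0697), and it was called in the fit without a filter. Tap1, a subunit of the peptide transporter, reached 16.2 and 16.3 CPM with IFN-γ and 15.1 and 17.0 in the combination, with an interaction of −0.51 (95% interval −1.26 to 0.23). Tap2 gave −0.18, Tapbpl −0.28 and B2m, the light chain, 0.12 (95% interval 0.01 to 0.24). Psme1 and Psme2 encode the subunits of the PA28 activator of the proteasome. Psme1 gave −0.41 (adjusted p 0.0546), and Psme2 was additive at 0.13 (95% interval −0.07 to 0.33). The MHC class II list had 2 genes tested, with 0 interactions called by edgeR or limma-voom and 0 at an unadjusted p under 0.05.

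The GTPases of cell-autonomous immunity had the largest folds. Of 12 immunity-related GTPases tested, 10 rose and 0 fell on average (all tested genes 18.8% and 11.6%). Over all tested genes 2.38% of interactions were called, and 1 was called among these GTPases (Tgtp1). Their median interaction was 0.36, and 0.28 for the 8 without a group at the floor. Igtp was at 0.511 and 0 CPM in control cells, 0.245 and 0.642 with TAK-243, 33.2 and 33.3 with IFN-γ, and 14.8 and 15.3 in the combination. The combination was below IFN-γ alone, by 1.14 on the log2 scale (adjusted p 2.18e-09), and the interaction of −1.85 (95% interval −3.40 to −0.29) was not called (adjusted p 0.219). Igtp overlaps Irgm2, and their sum gave −1.25 (adjusted p 0.224). Irgm1 was at 19.3 and 19.1 CPM in control cells, 9.57 and 10.2 with TAK-243, 67.0 and 64.8 with IFN-γ, and 44.9 and 44.0 in the combination. Its groups did not overlap, and the interaction was 0.40 (95% interval 0.13 to 0.66, adjusted p 0.0974).

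Iigp1, a GTPase of the same family, was at 0 counts in all 4 libraries without IFN-γ. It reached 6.69 and 5.67 CPM with IFN-γ and 1.76 and 1.69 in the combination. Against the floor of 3 counts per library it rose at least 32.3-fold in control cells and at least 7.16-fold in TAK-243 cells. Its level with IFN-γ was lower under TAK-243 (−1.84 on the log2 scale, adjusted p 1.47e-06), while Tgtp2 was higher (0.63, adjusted p 0.00436) and rose at least 31.8-fold and at least 39.1-fold. Gm12185, whose locus overlaps Tgtp1, went from at most 4 counts in each library without IFN-γ to 1.34 and 1.66 CPM with IFN-γ and 20.5 and 22.3 in the combination. All 3 tested guanylate-binding proteins rose, and 0 interactions were called by edgeR or limma-voom (1 at an unadjusted p under 0.05). Gbp2 was at 13.0 and 16.8 CPM with IFN-γ and 20.1 and 22.4 in the combination, and held at most 2 counts in every library without IFN-γ.

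Of 10 tested genes that restrain interferon signalling, 5 rose and 1 fell on average (all tested genes 18.8% and 11.6%). Their interactions had a median of −0.04, with 0 called (all tested genes 2.38%) and 2 at an unadjusted p under 0.05. There were 0 calls by limma-voom or among the 2 genes with an adjusted p from DESeq2. After the length and GC correction 1 was called, above 0. Socs1, which blocks JAK1 and JAK2, was at 1.09 and 1.31 CPM in control cells, 12.1 and 12.7 with TAK-243, 2.89 and 3.44 with IFN-γ, and 16 and 16.7 in the combination. The groups did not overlap, and both agents raised it. IFN-γ gave 1.40 (SE 0.27) on the log2 scale in control cells and 0.40 (SE 0.12) in TAK-243 cells. The interaction of −0.995 (95% interval −1.60 to −0.39) missed the threshold (adjusted p 0.0590).

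Of 15 chemokines and cytokines tested, 3 rose and 0 fell (all tested genes 18.8% and 11.6%). Interactions were called in 0 of them (all tested genes 2.38%), with a median of −0.01. At an unadjusted p under 0.05 there were 2, and limma-voom called 0. Cxcl10, which attracts T cells through CXCR3, was at 0 counts in both control libraries, 3.13 and 3.53 CPM with TAK-243, 0.563 and 0.637 with IFN-γ, and 13.0 in both combination libraries. TAK-243 alone gave a higher level than IFN-γ alone, and the combination was the highest. IFN-γ raised it by at least 3.14-fold in control cells and by 1.97 on the log2 scale in TAK-243 cells. In CPM it added 0.600 to control cells and 9.69 to TAK-243 cells, and the interaction was not called (adjusted p 0.104). Cxcl9, another CXCR3 ligand, stayed between 0.575 and 2.67 CPM and was not called in either background (adjusted p 0.876 and 0.0636). Among 17 checkpoint ligands and immune receptors, 7 rose (all tested genes 18.8%). Of their interactions 1 was called above 0 (Ido1) and 1 below (Lgals3bp), against 0.371% and 2.01% of all tested genes. Cd274, which encodes PD-L1, was raised by TAK-243 (1.30 on the log2 scale, adjusted p 1.42e-05) and not called for IFN-γ in either background (adjusted p 0.591 and 0.257).

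Antiviral and ISG15 genes gave 26 rises and 2 falls among 44 tested (all tested genes 18.8% and 11.6%). Of their interactions 1 was called above 0 (Dtx3l) and 0 below (all tested genes 0.371% and 2.01%), with a median of −0.0004. Parp14, a mono-ADP-ribosyltransferase, was additive. It was at 4.15 and 4.68 CPM in control cells, 5.46 and 8.43 with TAK-243, 18.5 and 19.8 with IFN-γ, and 29.5 and 28.7 in the combination. IFN-γ gave 2.11 and 2.10 on the log2 scale, and the interaction of −0.01 had a 95% interval of −0.45 to 0.42. Bst2 (−0.10), Vwa5a (0.15), Ube2l6 (0.08) and Csf1 (−0.08) were additive with IFN-γ effects under 2-fold.

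TAK-243 changed the levels of strongly induced genes, without and with IFN-γ, at shares not far from those over all tested genes. Of the 34 strongly induced genes without a group at the floor, TAK-243 alone raised 11 and lowered 10 (all tested genes 32.3% and 34%). With IFN-γ present it raised 9 and lowered 12 (all tested genes 32% and 36.2%). Both combination libraries lay above both IFN-γ libraries for 10 of the 34 and below them for 18, against 41% and 41.7% of all tested genes, a smaller share than over all genes for the higher ones and a larger share for the lower ones.

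Replication-dependent histone genes made up 46 of the 288 damped genes and cytosolic ribosomal protein genes 29. The histone genes, taken by their symbols after the values were seen, gave 57 rises on average and 46 interactions called below 0 among 63 tested. Against −0.04 over all tested genes, their median interaction was −0.46. They package newly copied DNA, apart from H1f0, a linker histone among the 63 that is not replication-dependent and was additive. Their summed level was 12013 and 11654 CPM in control cells, 4186 and 4238 with TAK-243, 18053 and 18076 with IFN-γ, and 4846 and 4684 in the combination. IFN-γ libraries were the highest, and those with TAK-243 stayed low with IFN-γ or without it. The median IFN-γ effect was 0.61 on the log2 scale in control cells and 0.16 in TAK-243 cells. H1f2, a linker histone, was at 233 and 231 CPM in control cells, 71.8 and 74.4 with TAK-243, 349 and 350 with IFN-γ, and 72.7 and 74.9 in the combination. Its TAK-243 and combination libraries overlapped, and the interaction was −0.57 (SE 0.05, adjusted p 1.31e-07). H3c3 (−0.62), H2ac12 (−0.62), H2ac6 (−0.58), H4f16 (−0.58), H2bc13 (−0.58), H4c11 (−0.54) and H2bc7 (−0.53) were called as well. Histone genes are close copies, so reads may be divided among them. The median of the family stayed below 0 under each scaling tried, from −0.27 to −0.46. The calls numbered 33 of 61 after the length and GC correction, 8 of 63 with all 16 libraries and 0 with TPM.

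Cytosolic ribosomal protein genes, also grouped after the values were seen, gave 63 rises and 29 interactions called below 0 among 80 tested. Their median of −0.13 turned to 0.04 with TPM, and 2 calls were left after the length and GC correction. Both families have short transcripts. Over all genes with a damped induction the median transcript length was 770 bases, against 1462 for all tested genes. Genes were split into 5 equal groups by transcript length. In the shortest group the median IFN-γ effect was 0.10 on the log2 scale in control cells and 0.03 in TAK-243 cells, and 130 interactions were called below 0. In the longest group these values were −0.07, −0.05 and 16. After the correction 135 genes were called in all, in place of 347.

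**Figure D3:**
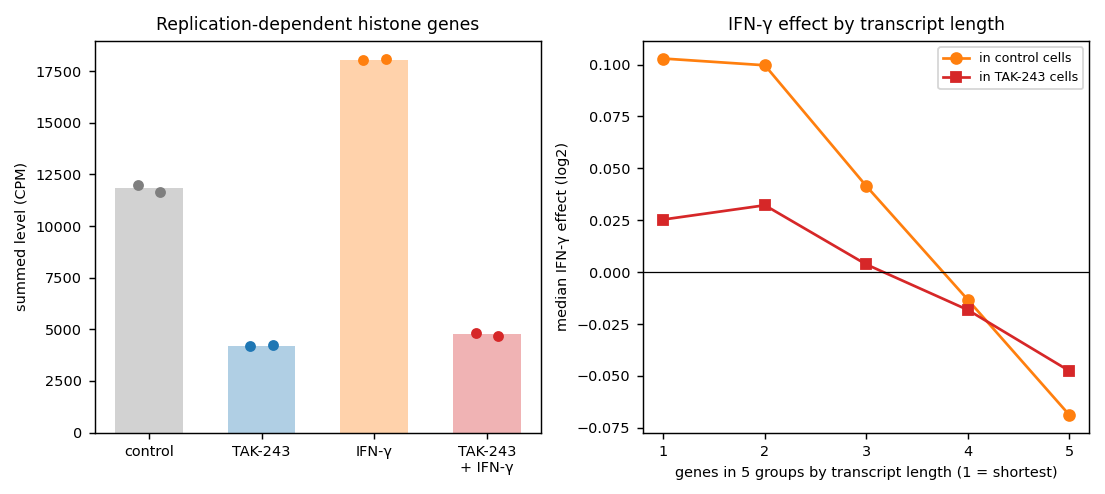
Left, summed level of 63 histone genes (replication-dependent apart from H1f0) in CPM, with bars at the group mean and a point per library. Right, median IFN-γ effect (log2) in 5 groups of genes by transcript length, where the line for control cells falls from 0.10 to −0.07 and that for TAK-243 cells from 0.03 to −0.05.

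In the other lists each call was small and, apart from that of Kif11, damped in a gene that IFN-γ raised. Over all tested genes 2.01% of interactions were called below 0. Of 26 ubiquitin and proteasome genes, 14 rose, 1 fell and 5 interactions were called below 0. The calls below 0 numbered 5 with limma-voom, 7 without a filter, 2 with DESeq2 and 1 with RLE factors. After the length and GC correction and in the fit of 16 libraries there were 0. There were also 0 with TPM and among genes with at least 10 counts in every library. Uba1, which encodes the target of TAK-243, was at 452 and 445 CPM in control cells, 594 and 565 with TAK-243, 543 and 561 with IFN-γ, and 643 and 628 in the combination. The 4 groups did not overlap, and the interaction was −0.17 (SE 0.04, adjusted p 0.0292). The value turned to 0.02 with TPM, and the call was lost with RLE factors, with at least 10 counts in every library, with Bonferroni adjustment, in the fit of 16 libraries, after the length and GC correction and in all leave-one-out fits but those without replicate 2 of TAK-243 or replicate 1 of IFN-γ (adjusted p up to 0.467). Of 40 cell cycle and replication genes, 16 rose and 7 fell (all tested genes 18.8% and 11.6%). Their interactions were called below 0 for 3 (Rrm2, Aurkb, Mcm3) and above for 1 (Kif11, a mitotic motor that IFN-γ lowered). In the fit of 16 libraries and with TPM, 0 genes of this list were called.

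Of 25 AP-1 and immediate early genes, 14 rose (all tested genes 18.8%) and 1 interaction was called (all tested genes 2.38%). This was Jund, at 223 and 210 CPM in control cells, 147 and 134 with TAK-243, 309 and 315 with IFN-γ, and 157 in both combination libraries. IFN-γ raised it by 0.53 on the log2 scale in control cells and 0.16 in TAK-243 cells, a difference of −0.37 (SE 0.05, adjusted p 8.34e-05). Trp53 (−0.20) was called among 23 genes of the p53 list, but kept the call in only 2 of 19 alternatives and in no fit with a library left out. Also called were Psat1 (−0.20) and Phgdh (−0.20), enzymes of serine synthesis, among the 20 genes of the integrated stress response. Both lost the call with at least 10 counts in every library and with TPM. They also lost it in the fit of 16 libraries and after the length and GC correction. The NF-κB pathway (19 tested), ER chaperones (18), heat shock genes (16) and cell death genes (18) had 0 called interactions in the main edgeR fit. At an unadjusted p under 0.05 these lists had 5, 7, 4 and 1. With at least 10 counts in every library, edgeR called 1 NF-κB gene, 1 ER chaperone and 1 heat shock gene, all above 0. Heat shock genes also had 1 call above 0 with RLE factors, 1 above and 1 below without a filter, and 2 above after the length and GC correction. DESeq2 and limma-voom each called 2 heat shock genes and 0 of the others, with an adjusted p from DESeq2 for 4, 12, 12 and 6 genes of the lists. The medians of these 4 lists ran from −0.16 to −0.03. With log2(TPM + 1) the medians of all 18 lists lay above 0, as did that of all tested genes.

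Among genes lowered by IFN-γ, 37 were damped and 3 amplified. The amplified ones were mt-Cytb and mt-Nd2, of the mitochondrial genome, and Gm29216, with interactions of −0.15 to −0.25. Those of mt-Cytb and mt-Nd2 changed sign with TPM. The damped ones were led by an entry of Nnt, a proton-pumping transhydrogenase, with an interaction of 4.70. Nnt has 2 overlapping entries, and summed over both the value was −0.14 (adjusted p 0.355), so the difference was not seen in the gene as a whole. Gm48764, a gene of unknown role, was at 42.1 and 43.1 CPM in control cells, 59.0 and 59.2 with TAK-243, 31.1 and 30.9 with IFN-γ, and 59.7 and 57.2 in the combination. Its IFN-γ libraries alone were low, and the interaction was 0.44 (SE 0.09, adjusted p 0.00735).

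Partial depletion of Uba1 by CRISPR gave a second view, in a design of the same form. It used 8 other libraries of Myc-CaP cells, with a control sgRNA or sgUba1, with and without IFN-γ. Uba1 was at 533 and 526 CPM with the control sgRNA and 295 and 283 with sgUba1. By the study's methods, lines with gene depletion were grown from single cells. An effect of sgUba1 therefore cannot be told apart from a difference between cell lines. The interaction with sgUba1 was called above 0 in 103 of 15530 genes (0.663%) and below in 617 (3.97%), and in 123 and 242 genes with at least 10 counts in every library. This count moved with single libraries, as 14 genes were called without replicate 2 of the control sgRNA plus IFN-γ and 2622 without replicate 2 of the control sgRNA. Of the strongly induced genes, 50 were tested in both experiments. With sgUba1, 8 had an interaction called above 0 and 1 called below, and with TAK-243, 2 and 2. Their median IFN-γ effect was 1.83 on the log2 scale in control cells, 1.89 with TAK-243, 0.76 with the control sgRNA and 1.63 with sgUba1. These genes were chosen by their response in the TAK-243 experiment, so the medians are a description.

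The difference between both interactions was tested in a fit of all 16 libraries. It was called above 0 in 26 of 15708 genes (0.166%) and below in 35 (0.223%), and in 37 and 26 with RLE factors. Without replicate 2 of the control sgRNA, 754 genes were called, and without replicate 2 of the combination, 25. Among the strongly induced genes the difference was called above 0 for Tgtp1, and Irf1 was among those called below. Irf1 was at 24.0 and 24.5 CPM with the control sgRNA, 22.6 and 20.3 with sgUba1, 37.6 and 38.1 with IFN-γ, and 64.1 and 66.8 with sgUba1 and IFN-γ. Here the groups without IFN-γ kept close and sgUba1 stood apart only with IFN-γ, with an interaction of 0.96 (SE 0.09, adjusted p 0.000890). The difference from the additive value under TAK-243 was −0.93 (adjusted p 0.00262). Erap1 gave 0.51 with sgUba1 (adjusted p 0.0144) and 0.54 with TAK-243. Ido1 gave 1.31 (adjusted p 0.000890) and 0.70, and neither gene's difference was called (adjusted p 0.955 and 0.173). Of the 347 TAK-243 calls, 228 had the same sign under sgUba1, and 34 were called there with the same sign and 9 with the opposite sign. Over all genes tested under sgUba1, 0.663% were called above 0 and 3.97% below, a count that moved with single libraries. Whether the overlap differs from these shares was not tested.

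**Figure D4:**
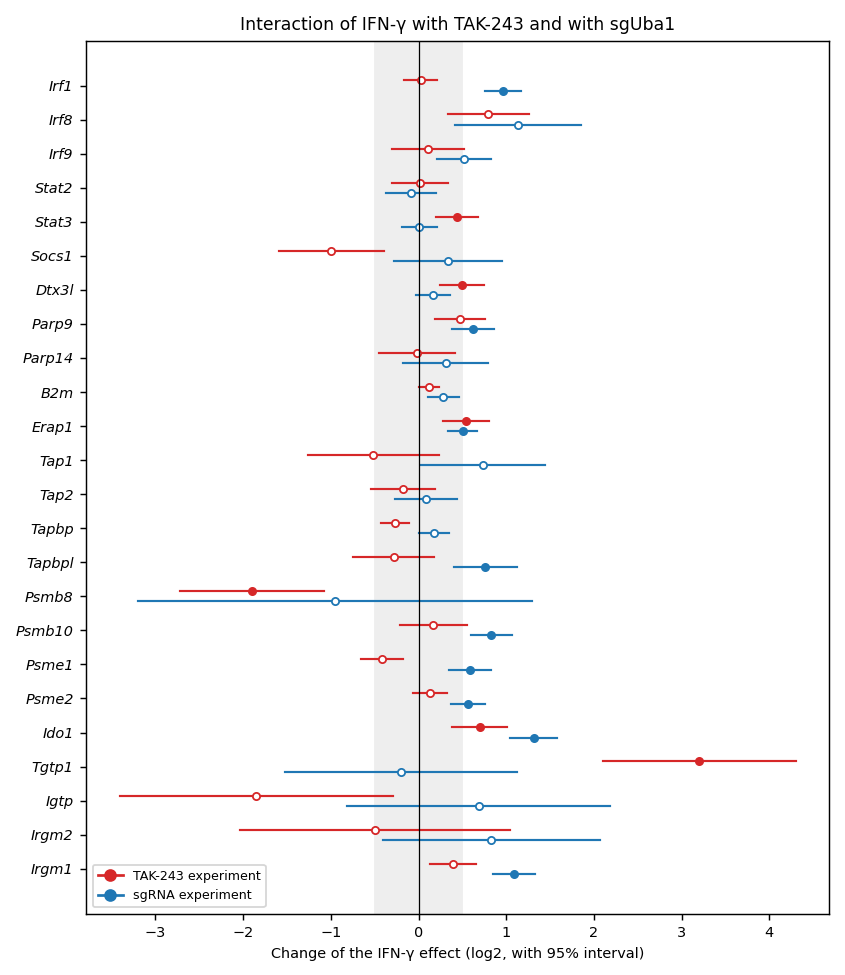
Change of the IFN-γ effect (x axis, log2, with 95% interval) for 24 interferon genes, with TAK-243 in red and sgUba1 in blue, filled points where the adjusted p is under 0.05 and a gray band from −0.5 to 0.5. For Irf1 the sgUba1 point lies at 0.96, to the right of the TAK-243 point at 0.03, and Tgtp1 shows the reverse order.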

How the data were processed

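Bulk RNA-seq of cultured Myc-CaP cells was used, 8 libraries in 4 groups of 2, with 8 more of the sgUba1 experiment for comparison. The deposited expected counts, estimated by the authors per gene, hold fractions. The design had taken them for read counts, and they were rounded to whole numbers first. The authors also deposited TPM, scaled by them for transcript length, used as an alternative and never in the main test. The submitters' processing notes name kallisto and mm10, with no version given in the sources used here. The study's methods describe digestion of ribosomal RNA and the labels capture of poly-A RNA. Groups were taken from the labels.

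The tests used edgeR 4.0.16 under R 4.3.3 (filterByExpr by group, TMM, quasi-likelihood test over all 14551 genes, Benjamini-Hochberg, threshold 0.05), all 8 libraries in a single fit and all 16 for the difference of interactions. Intervals are 95% Wald intervals. The floor was set at 3 counts in each of a group's libraries (0.184 to 0.241 CPM), and folds against 0 counts are lower bounds. Floors cover counting error only. Folds carry a prior count of 0.125. Positions are from GENCODE M21, which held 97.67% of the identifiers, and promoters from RefSeq, both on GRCm38.

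The members, lists and the grouping of histone and ribosomal genes were chosen with earlier results of these data known. Genes named are, by rule, up to 10 induced genes each with the largest called interaction above and below 0 at a mean log2 CPM of at least 1, up to 6 each among repressed genes and among genes with no average effect, the IFN-γ signalling genes with Uba1, Cxcl9, Cxcl10, B2m, Cd274 and Socs1, list members with a called interaction, and up to 10 additive genes with the largest effect. Other genes in the text (such as Irgm1, Igtp, Iigp1, Tgtp2, Gm12185, Gbp2, Parp9, Psmb9, Psmb10, Psme1, Tap1, Tap2 and Tapbpl) were chosen after their values were seen. Some genes that the rule names are not reported here.

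Alternatives were RLE factors, DESeq2 1.42.0, limma-voom (limma 3.58.1), no filter, at least 10 counts in every library, a replicate block, log2(TPM + 1), log2(TPM + 0.1), Bonferroni adjustment, a fit of 16 libraries, other definitions of the classes and each library left out. A length and GC offset and sums of gene copies or overlapping genes were chosen after seeing the data. On simulated data for 14225 genes, 30 of 50 interactions of −1 and 39 of 50 of 1 on the log2 scale were recovered.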

Additional observations from a re-analysis of the deposited data

Results flagged for a closer look

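For 5 named genes the change of the IFN-γ effect differed between the TAK-243 and the sgUba1 experiment, by the test of the difference in all 16 cell libraries. All values are interactions under TAK-243 minus those under sgUba1 on the log2 scale, with adjusted p by edgeR. Each experiment was compared with its own controls, and CPM here are scaled over the 16 libraries. In the sgRNA experiment, depletion cannot be told apart from a difference between cell lines.

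Tgtp1 differed by 3.40 (SE 0.82, adjusted p 0.0383). It rose from 0.112 and 0.0656 CPM to 3.04 and 2.73 with the control sgRNA, and from 0.566 and 0.368 to 12.8 and 13.8 with sgUba1, so its unstimulated level was near the floor in both and the size depends on the prior count. The call was lost in 15 of 23 alternatives, limma-voom among them. Irf1 differed by −0.93 (SE 0.13, adjusted p 0.00262). It went from 24.2 and 24.6 CPM to 37.1 and 37.4 with the control sgRNA, and from 22.7 and 20.4 to 64.3 and 67.4 with sgUba1.

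Mt2, a metallothionein that binds zinc, differed by −1.62 (SE 0.17, adjusted p 6.51e-05). It was additive under TAK-243, rising from 31.1 and 30.7 to 50.3 and 56.0 CPM in control cells and from 65.8 and 75.7 to 114 and 113 in TAK-243 cells. With the control sgRNA it went from 24.4 and 25.7 to 17.7 and 16.3 CPM, and with sgUba1 from 21 and 21.1 to 44.9 and 37.1. H2bc7, a histone gene, differed by −0.77 (SE 0.14, adjusted p 0.0172) and Gm48764 by 0.59 (SE 0.12, adjusted p 0.0369). These calls were lost in 13 and 18 of 25 alternatives. That of Irf1 was lost in 2 of 25, both with TPM, and that of Mt2 in 0.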

How the results depend on the processing

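Counts are given against 347 interactions, 4427 average effects, 4216 effects in control cells and 1534 in TAK-243 cells, 10 amplified, 288 damped and 3641 genes with the interval inside the additive limit (233 of them also called), 720 sgUba1 interactions and 61 differences. DESeq2, whose own filter left an adjusted p for 3267 of 14551 interactions, gave 219 interactions, 2651 and 867 effects in control and TAK-243 cells, 5 amplified genes and 151 differences. Without a filter there were 19 amplified genes, 1487 sgUba1 interactions and 343 differences, and with at least 10 counts in every library 16 amplified genes and 365 sgUba1 interactions. RLE factors gave 414 sgUba1 interactions. With log2(TPM + 1) there were 1 interaction, 71 effects in TAK-243 cells, 1 amplified, 0 damped and 2014 additive genes, 12 sgUba1 interactions and 30 differences. With log2(TPM + 0.1) there were 1 interaction, 2940 average effects, 67 effects in TAK-243 cells, 0 amplified, 1 damped and 1878 additive genes, 4 sgUba1 interactions and 11 differences. Bonferroni adjustment, which calls fewer genes by its construction, left 57 interactions, 1205 average effects, 1000 in control and 211 in TAK-243 cells, 2 amplified, 52 damped and 1106 additive genes, 15 sgUba1 interactions and 16 differences. All 16 libraries in a single fit gave 21 interactions, 643 effects in TAK-243 cells, 4 amplified and 14 damped genes. The length and GC offset gave 135 interactions, 1853 average effects, 1590 in control and 431 in TAK-243 cells, 101 damped and 1592 additive genes. A fold of at least 2 left 2 amplified and 6 damped genes by its construction, and an interval inside 0.25 left 1699 additive genes. Apart from Bonferroni and the class limits, the cause was not tested.

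Leaving out each library in turn gave 85 to 329 interactions, 3513 to 4134 average effects, 2835 to 4221 effects in control and 580 to 1507 in TAK-243 cells, 3 to 18 amplified, 70 to 274 damped and 2929 to 3394 additive genes, 14 to 2622 sgUba1 interactions and 25 to 754 differences. A group left with 1 library is then assumed to vary like the others.

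Among named genes, interactions that changed sign and were called in either setting were those with log2(TPM + 1) and log2(TPM + 0.1) for mt-Nd2 (0.0095 and 0.0096), mt-Cytb (0.025 and 0.025), Jdp2 (0.0090 and 0.0053), Uba1 (0.015 and 0.015), Sqstm1 (0.020 and 0.019) and Mcm3 (0.0054 and 0.0054). The entry of Nnt gave −0.14 with both entries summed, and Rpl10a-ps1 gave 8.26 without replicate 1 and −2.52 without replicate 2 of TAK-243, in which it stood at 15 and 0 CPM.

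With the replicate number as a block, 488 interactions were called (83 above 0, 405 below), 1771 effects in TAK-243 cells, 13 amplified and 400 damped genes, 842 sgUba1 interactions and 66 differences. Deviations of same-numbered libraries correlated at −0.0004 to 0.050. Whether these libraries shared a batch was not tested. Depth limits genes at a few counts. The 95% interval of a strongly induced gene reached a median of 0.95 from its estimate, against 0.31 over all tested genes.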
